A study of Rattus norvegicus with 12 samples.

Results

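The dual specificity MAP kinase phosphatases Dusp1, Dusp4, Dusp5, Dusp6, Dusp7, Dusp10, Dusp14 and Dusp16 were examined in rat optic nerve head astrocytes given epidermal growth factor (EGF). The members are a gene family named with earlier results of these data known, and their probe sets were found by gene symbol in the array annotation. Of the 8 genes, 7 had a named probe set, 10 probe sets in all, among 14217 genes with a named probe set on an array of 31099 probe sets. Dusp16 had no probe set under its name in the annotation used and was not analysed here. The measured probe set of Dusp4 was too dim to enter the tests, which left 6 genes and 9 probe sets among the 18625 probe sets tested.

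Primary astrocytes had been cultured from the optic nerve head, where the optic nerve leaves the eye, and no strain, age or EGF dose is given in the labels. The 4 groups were EGF for 4 h, control cultures for the 4 h experiment, EGF for 12 h and control cultures for the 12 h experiment, with 3 arrays in each and no treatment named for the controls. The design describes the treated and control cultures of each experiment as sister cultures, without saying which arrays came from which culture. Where replicates are repeat arrays of 1 culture, the p-values measure technical spread only.

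MAP kinases are switched on when a threonine and a nearby tyrosine in their activation loop are both phosphorylated. The phosphatases of this family remove both phosphates, and so turn the kinases off. Many of them are themselves transcribed when the kinases are active, which makes them a known negative feedback on growth factor signalling. They differ in where they sit and what they act on: Dusp5 is nuclear and acts on ERK, Dusp6 and Dusp7 are cytoplasmic and act on ERK, and Dusp1 and Dusp4 are nuclear with a wider range. Dusp10 and Dusp16 act mainly on JNK and p38, and Dusp14 is a small phosphatase that lacks the kinase-binding domain of the others.

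EGF cultures had more signal than their controls for Dusp5, Dusp6, Dusp7, Dusp10 and Dusp14 and less for Dusp1. At 4 h, 5 of the 6 tested genes rose and 1 fell past an adjusted p of 0.05. The counts describe the leading probe sets of members chosen with such results known. Over all tested probe sets at 4 h, 27.8% were called, 11.4% higher and 16.5% lower. At 12 h the counts were again 5 higher and 1 lower, against 36.1% called over all tested probe sets, 15.3% higher and 20.8% lower. EGF and control arrays did not overlap for the leading probe set of any of these 6 genes at either time. Over all tested probe sets, the arrays did not overlap for 18.3% in the higher and 29.8% in the lower direction at 4 h, and for 19.7% and 28.3% at 12 h. The log2 fold changes given here are on the scale of log2(signal + 24.4), from a limma fit with Benjamini-Hochberg adjustment, each with its standard error (SE). The median log2 fold change over all tested probe sets was -0.15 at 4 h and -0.06 at 12 h.

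**Figure D1:**
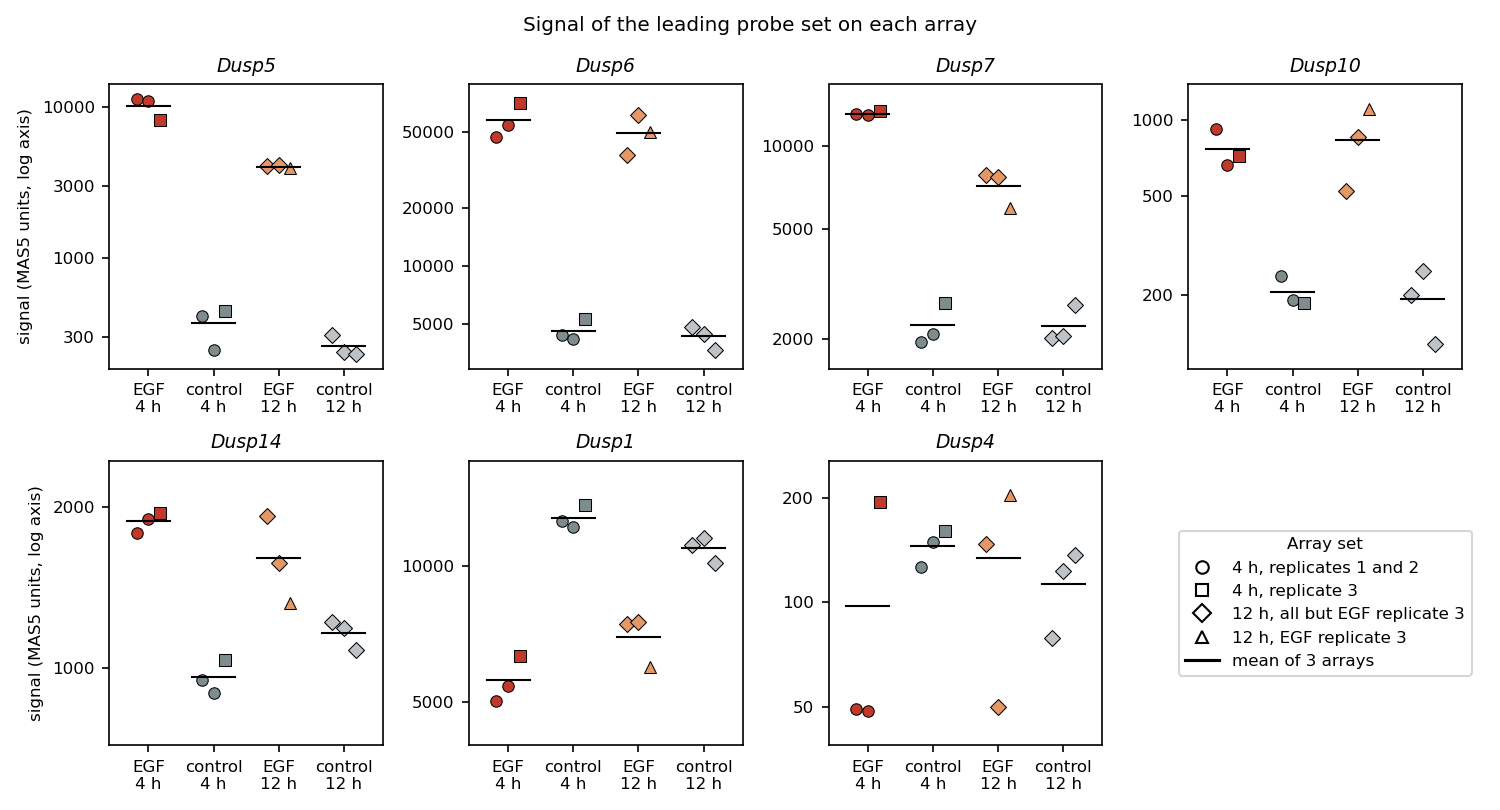
Signal of the leading probe set of each of the 7 measured phosphatase genes, on a log axis in deposited signal units, for EGF and control arrays at 4 h and 12 h. Each point is 1 array, its shape marks the set of arrays it belongs to, and the horizontal line is the mean of 3 arrays. EGF points lie above all control points of their time for Dusp5, Dusp6, Dusp7, Dusp10 and Dusp14 and below them for Dusp1, while those of Dusp4 overlap.

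Dusp5, the nuclear ERK phosphatase, gave signals of 11266, 11014 and 8169 in the 4 h EGF cultures, against 415.7, 247.7 and 445.7 in their controls. At 12 h the signals were 4039, 4132 and 3937 in EGF cultures, against 309.2, 239.4 and 232.2 in controls. The EGF arrays of each time lay far above every control array, and the 4 h EGF arrays lay above all 12 h EGF arrays. The log2 fold change was 4.72 ± 0.21 (SE, adjusted p = 6.98e-09) at 4 h, which is 26.3-fold. At 12 h it was 3.84 ± 0.21 (SE, adjusted p = 2.57e-08), which is 14.4-fold. Among the 18625 tested probe sets, this was the 19th highest log2 fold change at 4 h and the 47th highest at 12 h.

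The promoter windows of Dusp5, Dusp6 and Dusp1 are shown because these genes were the ones with the largest rise, a rise on 3 probe sets and the fall. They run from 250 bases before to 50 bases after the annotated start, are from RefSeq on GRCr8, and lie on the plus strand at chr1:262543524-262543823 for Dusp5, chr7:35979354-35979653 for Dusp6 and chr10:17184603-17184902 for Dusp1. Capitals mark matches on either strand to the CRE core TGACGT, AP-1 TGANTCA, ETS CCGGAAG, E-box CACGTG or the CArG box bound by serum response factor.
Dusp5: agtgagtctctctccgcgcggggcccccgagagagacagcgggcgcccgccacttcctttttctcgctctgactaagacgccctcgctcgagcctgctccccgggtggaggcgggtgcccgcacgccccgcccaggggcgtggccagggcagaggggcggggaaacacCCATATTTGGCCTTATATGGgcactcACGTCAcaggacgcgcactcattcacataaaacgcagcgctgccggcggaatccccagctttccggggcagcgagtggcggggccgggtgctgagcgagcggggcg
Dusp6: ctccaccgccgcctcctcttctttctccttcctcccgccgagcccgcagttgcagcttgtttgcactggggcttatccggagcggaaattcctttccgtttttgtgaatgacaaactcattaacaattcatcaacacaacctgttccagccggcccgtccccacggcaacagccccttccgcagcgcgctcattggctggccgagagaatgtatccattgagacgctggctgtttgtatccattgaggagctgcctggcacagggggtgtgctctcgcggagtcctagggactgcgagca
Dusp1: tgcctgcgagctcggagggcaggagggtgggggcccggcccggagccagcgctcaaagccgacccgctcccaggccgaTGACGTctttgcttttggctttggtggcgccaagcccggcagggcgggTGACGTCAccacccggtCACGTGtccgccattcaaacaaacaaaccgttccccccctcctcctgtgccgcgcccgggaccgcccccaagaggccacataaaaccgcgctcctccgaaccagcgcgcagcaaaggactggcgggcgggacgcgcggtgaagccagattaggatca
The Dusp5 window held a pair of adjoining CArG boxes at -82 to -73 and -72 to -63 from the start, and a CRE core on the minus strand at -56 to -51. In the Dusp1 window there were 3 CRE cores, at -172 to -167, -124 to -119 and -122 to -117. The last pair overlap on opposite strands, and an E-box stands at -107 to -102. The Dusp6 window matched none of the motifs searched.

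Across 33469 rat promoter windows of the same length, a CArG box was found in 1.64%, a CRE core in 7.94%, AP-1 in 7.33%, the ETS letters in 8.75% and the E-box in 6.42%. At least 2 CArG boxes that do not overlap were found in 7 windows, or 0.0209%, a count made after the Dusp5 pair had been seen. Windows were given for 7 of the 8 genes, 9 in all because Dusp14 has 3, and 6 of the 9 had no match. One Dusp14 window held AP-1 at -89 to -83, and the Dusp7 and Dusp10 windows held none of the motifs. A match is a description of letters, and binding was not measured.

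Dusp6, the cytoplasmic ERK phosphatase known from embryos as a gene induced by fibroblast growth factor, had 3 probe sets. The brightest read 47149, 54095 and 70404 in 4 h EGF cultures, against 4360.2, 4199 and 5303 in controls. The 12 h readings were 37844, 61076 and 49659 in EGF cultures, against 4808, 4451 and 3667 in controls. No EGF array came near a control array at either time, and the 4 h and 12 h EGF arrays overlapped each other. The log2 fold change was 3.61 ± 0.19 (SE, adjusted p = 2.64e-08) at 4 h and 3.50 ± 0.19 (SE, adjusted p = 2.21e-08) at 12 h, or 12.2-fold and 11.3-fold. It ranked 49th from the highest at 4 h and 71st at 12 h.

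The other Dusp6 probe sets rose as well, by smaller amounts. The next in brightness averaged 29252 ± 11510 in EGF cultures against 2577 ± 736 in controls at 4 h (SD, n = 3 each), a log2 fold change of 3.46 ± 0.26 (SE, adjusted p = 5.8e-07). In the 12 h experiment it averaged 24417 ± 649 in EGF cultures against 3266 ± 851 in controls (SD, n = 3 each), a log2 fold change of 2.92 ± 0.26 (SE, adjusted p = 1.58e-06). The dimmest of the 3 had log2 fold changes of 2.39 ± 0.25 (SE, adjusted p = 1.34e-05) at 4 h and 2.11 ± 0.25 (SE, adjusted p = 2.49e-05) at 12 h. All 3 probe sets therefore passed in the same direction at both times, and the dimmest gave the smallest log2 fold change at each time.

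Dusp7, a cytoplasmic relative of Dusp6 that also acts on ERK, read 13027, 12943 and 13380.3 in 4 h EGF cultures, against 1948, 2072 and 2697 in controls. The 12 h signals were 7844, 7689 and 5946 in EGF cultures, against 2007, 2043 and 2647 in controls. The 4 h EGF arrays were close to each other and above all 12 h EGF arrays, while the controls of both times covered nearly the same range. The log2 fold change was 2.55 ± 0.16 (SE, adjusted p = 1.38e-07) at 4 h, or 5.86-fold, and 1.67 ± 0.16 (SE, adjusted p = 4.01e-06) at 12 h, or 3.18-fold.

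Dusp10, which inactivates JNK and p38, had low signals. They were 925.5, 664.7 and 718.9 in 4 h EGF cultures, against 238.9, 190.9 and 186.7 in controls, and 522.9, 858.5 and 1113 in 12 h EGF cultures, against 201.1, 250.2 and 127.4 in controls. The groups did not overlap, but the 12 h EGF arrays were spread over a wide range, with replicate 1 lowest and replicate 3 highest. The log2 fold change was 1.78 ± 0.32 (SE, adjusted p = 0.000936) at 4 h and 1.96 ± 0.32 (SE, adjusted p = 0.000313) at 12 h, or 3.44-fold and 3.88-fold. The control means of 205.5 and 192.9 lay under the 215 that a probe set had to average to be tested, so Dusp10 entered the tests through its EGF arrays. With no such filter its adjusted p was 0.00183 at 4 h and 0.000596 at 12 h.

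Dusp14, the phosphatase without a kinase-binding domain, had 1786, 1900.5 and 1946 in 4 h EGF cultures, against 952.4, 899.8 and 1034.5 in controls. In 12 h cultures it had 1918, 1572 and 1320.5 in EGF cultures, against 1219.5, 1190.1 and 1081 in controls. The 4 h groups stood well apart, whereas the lowest 12 h EGF array was only slightly above the highest control. The log2 fold change was 0.95 ± 0.16 (SE, adjusted p = 0.000657) at 4 h, or 1.93-fold. At 12 h it was 0.44 ± 0.16 (SE, adjusted p = 0.046), or 1.36-fold. That 12 h call was lost in 14 of 23 alternatives, including 11 of the 12 that left out 1 array, and reached an adjusted p of 0.153 without EGF replicate 1 at 12 h.

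Dusp1, the nuclear phosphatase that acts on p38 and JNK as well as ERK and is an immediate early gene in many cells, was the gene that fell. Its leading probe set read 5034, 5420.1 and 6334 in 4 h EGF cultures, against 12531, 12153 and 13607 in controls. At 12 h the signals were 7451, 7501 and 5995 in EGF cultures, against 11109.8, 11516 and 10143 in controls. Every EGF array was below every control array of its time. The log2 fold change was -1.19 ± 0.13 (SE, adjusted p = 1.86e-05) at 4 h, which is 2.28-fold lower. At 12 h it was -0.65 ± 0.13 (SE, adjusted p = 0.00162), which is 1.57-fold lower.

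A second, dimmer Dusp1 probe set had a like 4 h value with a larger SE, and differed from the leading one at 12 h. At 4 h its EGF arrays all lay below its controls, as for 29.8% of all tested probe sets. The SE is drawn from the spread over all 12 arrays, and the 12 h EGF arrays averaged 473 ± 538 (SD, n = 3). In 4 h EGF cultures the probe set read 1207, 1203 and 1715, against 3777, 2724 and 3224 in controls. Its log2 fold change of -1.23 ± 0.52 (SE, adjusted p = 0.0946) did not pass. At 12 h it read 140.1, 184.4 and 1093 in EGF cultures, against 174.3, 157.8 and 166.0 in controls, a log2 fold change of 0.83 ± 0.52 (SE, adjusted p = 0.233). The positive 12 h value rests on EGF replicate 3, which stood alone, since EGF replicates 1 and 2 against the 3 controls gave -0.04. In control cultures this probe set was lower at 12 h than at 4 h, with a log2 difference of -4.09 ± 0.52 (SE, adjusted p = 7.89e-05), while the leading probe set differed by -0.22 ± 0.13 (SE, adjusted p = 0.175).

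Dusp4, a nuclear phosphatase close to Dusp1, read 49.2, 48.4 and 195.2 in 4 h EGF cultures, against 126.6, 149.0 and 160.3 in controls. The 12 h signals were 147.4, 50 and 204.5 in EGF cultures, against 78.7, 123.2 and 136.7 in controls. These signals overlapped in both experiments and were low throughout, with a mean over all 12 arrays of 122.4. In a fit without the filter on dim probe sets the log2 fold change was -0.68 ± 0.54 (SE, adjusted p = 0.494) at 4 h and 0.09 ± 0.54 (SE, adjusted p = 0.943) at 12 h.

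**Figure D2:**
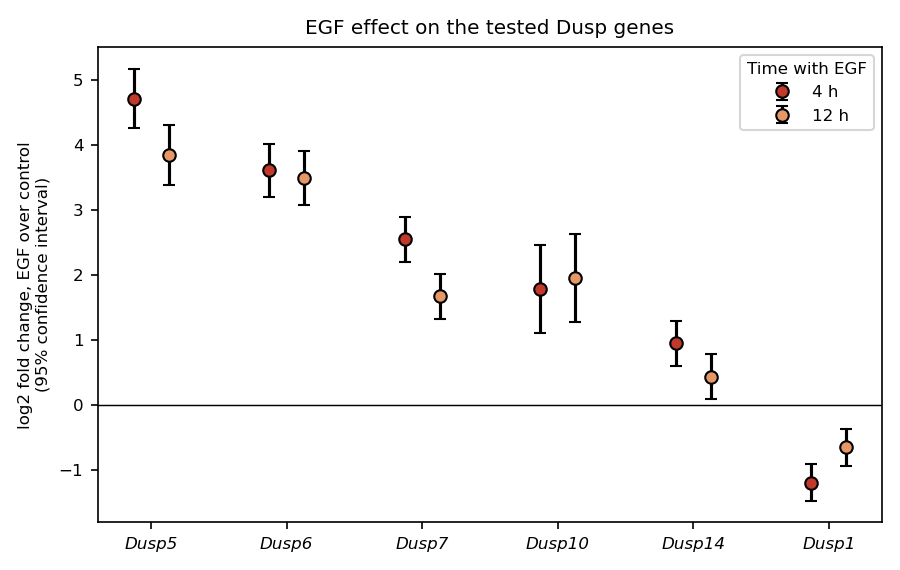
Log2 fold change of EGF against control for the 6 tested phosphatase genes at 4 h and at 12 h, on the scale of log2(signal + 24.4), with bars for the 95% confidence interval from the fit. Dusp5 has the largest value at both times (4.72 and 3.84), Dusp14 the smallest of those that rose, and Dusp1 is the gene below 0.

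Since each time has its own controls, the times were compared by the difference between their EGF effects. Of the 6 genes, Dusp7 alone passed this test, with an effect smaller at 12 h than at 4 h by a log2 difference of -0.88 ± 0.23 (SE, 95% interval -1.37 to -0.39, adjusted p = 0.0249). Over all tested probe sets 11.6% passed this test, 6.11% in the lower and 5.45% in the higher direction, so a count of 1 in 6 is near the background. Dusp5 had a difference of like size, -0.87 ± 0.30 (SE, 95% interval -1.52 to -0.22), that did not pass (adjusted p = 0.0817). Without the replicate 3 pair at 4 h it was -1.17 (adjusted p = 0.0393). For Dusp1 the difference was 0.54 ± 0.18 (SE, 95% interval 0.14 to 0.94, adjusted p = 0.0764), a smaller fall at 12 h that also did not pass. It passed without EGF replicate 3 at 4 h (adjusted p = 0.0461) or without EGF replicate 3 at 12 h (adjusted p = 0.0127), and with the array set as a block (0.65, adjusted p = 0.00187).

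The differences of the other genes did not pass either. They were -0.51 ± 0.23 (SE, adjusted p = 0.172) for Dusp14, -0.11 ± 0.27 (SE, 95% interval -0.70 to 0.47, adjusted p = 0.832) for Dusp6 and 0.17 ± 0.45 (SE, 95% interval -0.79 to 1.14, adjusted p = 0.844) for Dusp10. The interval of Dusp10 is the widest of the 6 and holds values of either sign. The Dusp7 call is close to the threshold and was lost with the replicate number as a block (adjusted p = 0.0518) and in the robust fit (adjusted p = 0.0516). It was also lost without 1 of 5 arrays, namely either of EGF replicates 1 and 2 at 4 h, either of control replicates 1 and 2 at 4 h, or control replicate 3 at 12 h, with adjusted p between 0.0555 and 0.0684.

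Between the controls, none of the 6 leading probe sets differed past the threshold at 12 h against 4 h, whereas 45.4% of all tested probe sets did, 23.8% higher and 21.7% lower. The log2 differences were -0.44 ± 0.21 (SE, adjusted p = 0.109) for Dusp5, -0.10 ± 0.19 (SE, adjusted p = 0.688) for Dusp6, -0.0015 ± 0.16 (SE, adjusted p = 0.995) for Dusp7, -0.12 ± 0.32 (SE, adjusted p = 0.786) for Dusp10 and 0.27 ± 0.16 (SE, adjusted p = 0.186) for Dusp14. The 12 h controls are all arrays of a high actin 3' to 5' ratio and the 4 h controls are not, so time and array set cannot be told apart in this comparison. Without control replicate 2 at 4 h, the lowest Dusp5 control, the Dusp5 difference was -0.69 (adjusted p = 0.0151).

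The arrays fell into 4 sets by their control probe sets. Replicate 3 of both 4 h groups had hybridisation control signals of 21080.5 and 24461, against at most 594.8 elsewhere, and the 12 h arrays other than EGF replicate 3 had an actin 3' to 5' ratio between 11.1 and 21.7. That ratio was 1.24 in EGF replicate 3 at 12 h and 1.20 to 1.61 in the 4 h arrays. The 12 h array with the low ratio was also the one in which the second Dusp1 probe set read 1093, and the part of the ratio in that reading was not tested. Values within sets show how far each gene depends on them. Among replicates 1 and 2 at 4 h, the log2 difference of EGF and control was 5.01 for Dusp5, 3.55 for Dusp6, 2.68 for Dusp7, 1.76 for Dusp10, 0.97 for Dusp14 and -1.24 for Dusp1. In the replicate 3 pair at 4 h these were 4.12, 3.72, 2.30, 1.82, 0.90 and -1.10 in the same gene order.

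For 12 h, EGF replicates 1 and 2 against the 3 controls of their set gave 3.86 for Dusp5, 3.48 for Dusp6, 1.80 for Dusp7, 1.72 for Dusp10, 0.57 for Dusp14 and -0.54 for Dusp1. EGF replicate 3 at 12 h, set against the same controls of another array set, gave 3.81, 3.53, 1.42, 2.43, 0.18 and -0.86. The direction was thus the same in each of these comparisons for the leading probe sets of these 6 genes. The second Dusp1 probe set gave -1.39 in replicates 1 and 2 and -0.90 in the replicate 3 pair at 4 h, and -0.04 and 2.55 in the same order at 12 h.

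**Figure D3:**
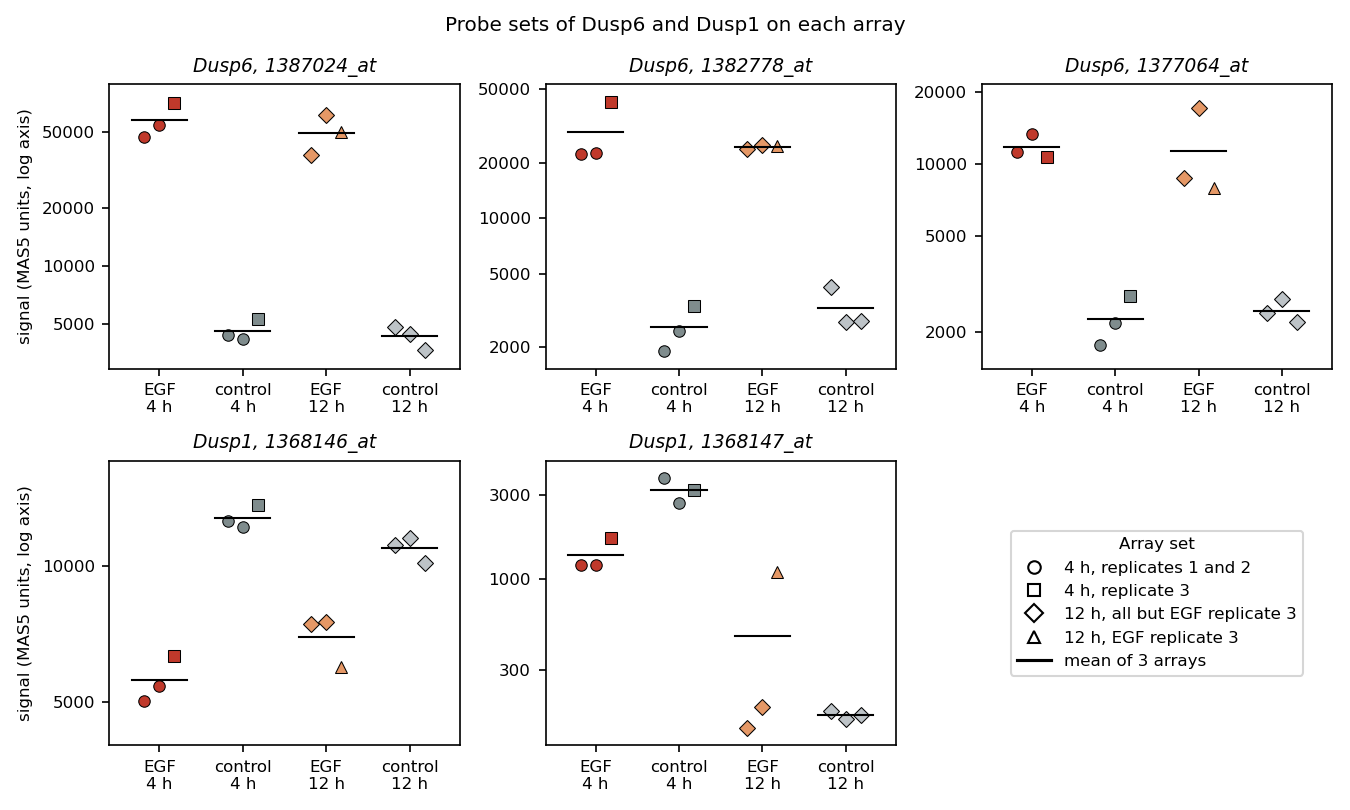
Signals of all probe sets of Dusp1 and Dusp6 in each of the 12 arrays, on a log axis in deposited signal units. The 3 Dusp6 probe sets are higher in EGF than in control arrays at both times, while the dimmer Dusp1 probe set lies near 166.0 in the 12 h controls and reaches 1093 in EGF replicate 3 at 12 h.

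The astrocyte label was set against marker genes. Of 11 astrocyte markers on the array, 6 were bright enough to test, among them Vim, Gja1 and Glul, while the probe sets of Gfap, Slc1a2, Aqp4, Aldh1l1 and Pax2 were too dim. Gfap averaged 195.2 in EGF cultures and 215.3 in controls at 4 h, and 130.1 and 200.8 at 12 h. The 11 astrocyte markers summed to 133210 to 160578 in EGF cultures against 125751 to 137964 in controls at 4 h. At 12 h they summed to 139460 to 200642 against 144987 to 151906. Most of this sum came from Vim and Gja1, which averaged 62763 and 62981 in the 4 h controls. Nes rose at both times (log2 fold changes 2.37 and 2.36), and Glul fell at 12 h (-1.28). All 8 fibroblast markers were tested, with 2 lower at 4 h, 5 lower at 12 h and none higher. Their summed signal was 211059 to 225586 in EGF cultures against 244383 to 275282 in controls at 4 h. At 12 h it was 115632 to 189884 against 211392 to 252256. Ptgds, 1 of the 2 lower at 4 h, averaged 72 in EGF cultures against 195.3 in controls at that time. It entered the tests through its 12 h arrays, which averaged 4151 in EGF cultures and 6236 in controls.

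The 9 microglia markers summed to 6551 to 7975 in EGF cultures against 4648 to 5164 in controls at 4 h, and to 6414 to 8959 against 3579 to 4421 at 12 h. Of the 5 tested, Cd14 rose at both times (log2 fold changes 0.74 and 0.88) and Cd68 at 12 h (3.70, adjusted p = 0.000243). Cd68 averaged 924.1 in the 12 h EGF cultures, against 62.1 in their controls, and 72.4 and 47.2 in EGF and control cultures at 4 h. It therefore entered the tests only through its 12 h EGF arrays. Aif1, Csf1r and Fcer1g did not pass, Cx3cr1 was too dim to test, and Itgam, Ptprc and Tyrobp averaged under 109, the 25th percentile of mean signal on the array. The 9 oligodendrocyte markers summed to 3788 to 4559.8 in EGF cultures against 6329 to 6608 in controls at 4 h, and to 3228 to 3493 against 6185.5 to 6867 at 12 h. Mbp and Pdgfra fell at both times, while Cspg4 of the same list had 1.12 (adjusted p = 0.0521) at 4 h and 2.01 (adjusted p = 0.00152) at 12 h on the log2 scale.

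Sums of the 4 Schwann cell markers were 27835 to 29253.5 in EGF cultures against 17757 to 19388 in controls at 4 h, and 8100.1 to 10540.8 against 9473 to 11929.6 at 12 h. Of these, Egr2, which is also an early growth response gene, averaged 9110.1 in EGF cultures against 1297 in controls at 4 h, while Prx and Pmp22 did not pass at 4 h and fell at 12 h. The 6 endothelial markers summed to 3523.5 to 4019 in EGF cultures against 2869 to 3405 in controls at 4 h. At 12 h they summed to 1506 to 2119.8 against 2578 to 3142, and Flt1 was higher and Tek lower at both times. Flt1 averaged 2345 in EGF cultures against 230.1 in controls at 4 h, and 385.1 against 71.0 at 12 h. Its EGF arrays thus raised the mean by which it entered the tests. The 8 neuron markers summed to 1869 to 2339 in EGF cultures against 1721 to 1869.6 in controls at 4 h, and to 1134 to 1954 against 381 to 1023 at 12 h, and the 1 that was tested, Thy1, did not pass. The part of these markers in the phosphatase values was not tested, and in bulk RNA fewer cells of a type and less RNA per cell cannot be told apart.

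Other genes of the MAP kinase pathway were counted in 7 lists that hold 95 genes, of which 80 were on the array and 63 were tested. At 4 h 11 were higher, 9 lower and 43 did neither, and at 12 h 12 were higher, 9 lower and 42 did neither. The shares called over all tested probe sets were 27.8% at 4 h and 36.1% at 12 h, so the pathway counts were near the background. By direction these shares were 11.4% higher and 16.5% lower at 4 h, and 15.3% and 20.8% at 12 h. The count of each list below is to be read beside them. Among kinases of the ERK cascade, Mapk7, which encodes ERK5, rose at 4 h to 1761 ± 386 in EGF cultures against 665.9 ± 201 in controls (SD, n = 3 each; log2 fold change 1.39 ± 0.27 SE, adjusted p = 0.00189). Map2k1, the kinase MEK1 that phosphorylates ERK, rose at both times, by 0.75 ± 0.15 (SE, adjusted p = 0.00232) at 4 h and 1.52 ± 0.15 (SE, adjusted p = 5.28e-06) at 12 h on the log2 scale. In this list 3 of 14 tested genes were higher and 1 lower at 4 h, with a median log2 fold change of 0.05, and 4 were higher and 1 lower at 12 h, with a median of 0.16. Map2k5, the kinase above ERK5, had a log2 fold change of -0.60 ± 0.17 (SE, adjusted p = 0.0199) at 4 h. At 12 h Sos1, an exchange factor for Ras, had -0.72 ± 0.14 (SE, adjusted p = 0.0012), and the scaffold Iqgap1 had 0.74 ± 0.15 (SE, adjusted p = 0.00154).

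JNK and p38, on which Dusp10 and Dusp1 act, were listed with the kinases above them and with scaffolds. In this list 2 of 12 tested genes were higher and 2 lower at 4 h. At 12 h 2 were higher and 4 lower, with a median log2 fold change of -0.04 at 4 h and -0.14 at 12 h. Map2k3, which phosphorylates p38, averaged 25196 ± 1422 in EGF cultures against 6728 ± 263 in controls at 4 h (SD, n = 3 each), a log2 fold change of 1.90 ± 0.16 (SE, adjusted p = 1.39e-06). Its 12 h value was 0.17 ± 0.16 (SE, adjusted p = 0.425). Map3k4, a kinase above JNK and p38, fell at both times, with log2 fold changes of -1.02 ± 0.15 (SE, adjusted p = 0.000194) at 4 h and -1.11 ± 0.15 (SE, adjusted p = 6.56e-05) at 12 h. Map2k6, which also phosphorylates p38, had -1.53 ± 0.45 (SE, adjusted p = 0.0226) at 4 h. Its signals were low, 113.9 ± 72.3 in EGF cultures against 346 ± 130 in controls (SD, n = 3 each). Map3k1 had -0.91 ± 0.21 (SE, adjusted p = 0.00394) and Mapk8, which encodes JNK1, -0.47 ± 0.14 (SE, adjusted p = 0.0157) at 12 h.

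The kinases that MAP kinases phosphorylate had 3 of 8 lower and none higher at 4 h, and 1 of each at 12 h. Mknk1, a kinase that phosphorylates eIF4E, fell at both times, with log2 fold changes of -0.83 ± 0.25 (SE, adjusted p = 0.024) at 4 h and -1.42 ± 0.25 (SE, adjusted p = 0.000592) at 12 h. Rps6ka5, which phosphorylates histone H3, had -1.52 ± 0.39 (SE, adjusted p = 0.0102) and Rps6ka3, a ribosomal S6 kinase, -0.55 ± 0.16 (SE, adjusted p = 0.0196) at 4 h. The Rps6ka5 signals were low at 4 h, 125.7 ± 85.1 in EGF cultures against 367.7 ± 93.0 in controls (SD, n = 3 each). Mapkapk2, a target of p38, was the one that rose at 12 h, with 0.64 ± 0.22 (SE, adjusted p = 0.0387). The median log2 fold change of this list was -0.32 at 4 h and -0.14 at 12 h.

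Among transcription factors that MAP kinases or their target kinases phosphorylate, 3 of 10 were higher at 4 h and 2 at 12 h, with none lower and medians of 0.33 and 0.02. Ets1, an ETS factor, had log2 fold changes of 1.13 ± 0.16 (SE, adjusted p = 0.000144) at 4 h and 1.82 ± 0.16 (SE, adjusted p = 1.41e-06) at 12 h. Elk3, an ETS factor that partners with serum response factor, had 1.34 ± 0.20 (SE, adjusted p = 0.000214) at 4 h and 1.67 ± 0.20 (SE, adjusted p = 2.25e-05) at 12 h. Ets2, another ETS factor, had 1.01 ± 0.16 (SE, adjusted p = 0.000493) at 4 h. The tyrosine and serine/threonine phosphatases that act on MAP kinases or on MEK had 2 of 8 higher at 4 h, and 1 higher and 1 lower at 12 h, with medians of -0.09 and 0.03. Ppp2r1b, a scaffold subunit of protein phosphatase 2A, had 1.80 ± 0.18 (SE, adjusted p = 1.04e-05) at 4 h and 1.07 ± 0.18 (SE, adjusted p = 0.000497) at 12 h. Ppp2ca, its catalytic subunit, had 0.51 ± 0.13 (SE, adjusted p = 0.0114) at 4 h, and Ppm1d, a p53-induced phosphatase, had -0.92 ± 0.18 (SE, adjusted p = 0.00125) at 12 h.

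Apart from Dusp14, which is counted with the members, the atypical dual specificity phosphatases, which lack the MAP kinase binding domain, were mixed. Of 11 tested, 1 was higher and 3 lower at 4 h, and 2 were higher and 2 lower at 12 h. Their median log2 fold change was -0.20 at 4 h and 0.18 at 12 h. Styxl1, a catalytically inactive relative of these phosphatases, fell at both times, with log2 fold changes of -0.98 ± 0.21 (SE, adjusted p = 0.00351) at 4 h and -1.55 ± 0.21 (SE, adjusted p = 8.02e-05) at 12 h. Dusp3, which acts on ERK and JNK, had -0.39 ± 0.11 (SE, adjusted p = 0.0198) at 4 h. Dusp19 had -0.60 ± 0.20 (SE, adjusted p = 0.0366) at 4 h and -1.16 ± 0.20 (SE, adjusted p = 0.000438) at 12 h, and Dusp11, which acts on RNA, had 0.69 ± 0.16 (SE, adjusted p = 0.00387) at 12 h. These lists are described by their counts alone and no test was made of a list as a whole.

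**Figure D4:**
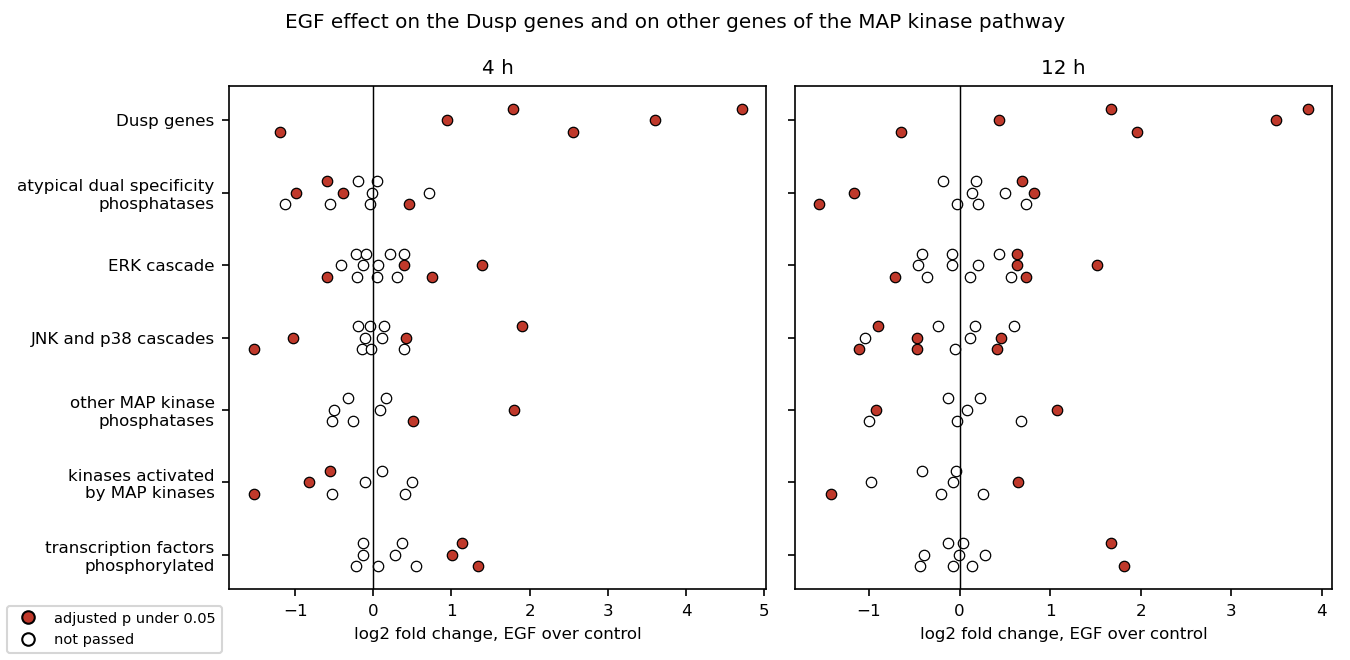
Log2 fold change of EGF against control at 4 h and 12 h for the tested genes of the pathway lists and for the phosphatase genes, each point 1 gene on the scale of log2(signal + 24.4). Filled points passed an adjusted p of 0.05. List medians lie between -0.32 and 0.33, and Dusp5 and Dusp6 lie to the right of every list gene at both times.

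The genes whose patterns were most like each phosphatase were found as those with the smallest root mean square difference in log2 signal over the 12 arrays, after each gene's mean was taken out, among 10260 other tested genes. This is a description, and the 12 arrays share the array sets given above. Nearest to Dusp5 were Fosl1, an AP-1 subunit (0.430), Pkp1 (0.492) and Ripk3 (0.496). Nearest to Dusp6 were Tnfaip8l3 (0.260), Ripk3 (0.329) and Pvr (0.355), so Ripk3, a kinase of necroptosis, was named for both. Dusp7 was nearest to Fkbp5 (0.198), Acsl4 (0.236) and Mtap (0.244), and Dusp10 to Ppp1r18 (0.264), Vps37b (0.299) and Mapk6 (0.321). The closest genes to Dusp14 were Alg13l1 (0.108), Elac2 (0.121) and Mrpl12 (0.121), and to Dusp1 they were Slc35a5 (0.104), Stk17b (0.143) and Pawr (0.144).

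Of the family members themselves, Dusp5 and Dusp6 were nearest to each other, at 0.621, with Dusp6 8th among the genes most like Dusp5 and Dusp5 16th among those most like Dusp6. Dusp7 and Dusp10 differed by 0.566, with Dusp10 127th among the genes most like Dusp7. The family member nearest to Dusp14 was Dusp10, 6532nd among the genes most like it, and the one nearest to Dusp1 was Dusp14, 7999th. The measure is not scaled, so these ranks depend on the size of the changes as well as their direction. The SD over the 12 arrays was 0.41 log2 units for Dusp14 and 1.03 for Dusp10.

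**Figure D5:**
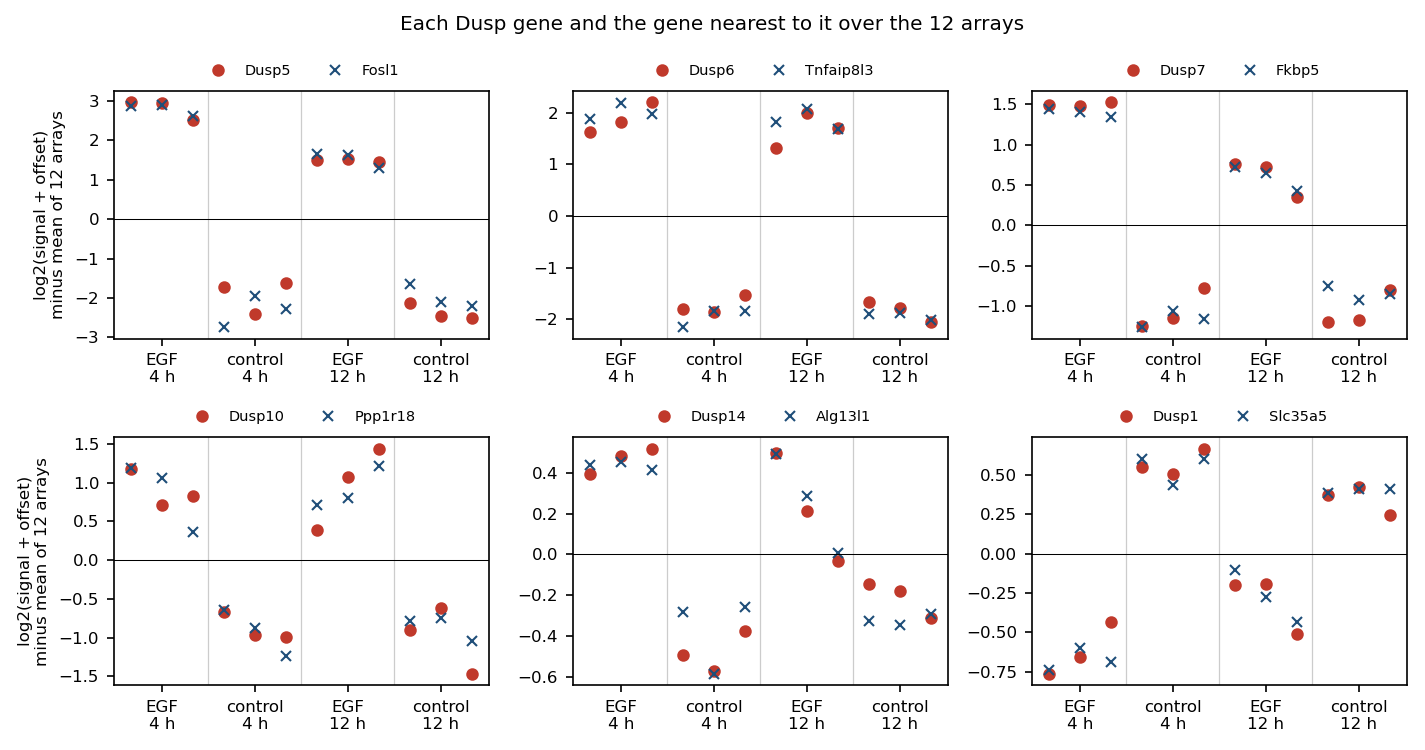
Log2 signals of each phosphatase gene and of its nearest gene over the 12 arrays, with each gene's mean taken out. The points of Dusp1 and Slc35a5 differ by a root mean square of 0.104 log2 units, and those of Dusp5 and Fosl1 by 0.430.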

How the data were processed

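RNA of 12 cultured rat astrocyte samples was measured on 1-colour Affymetrix arrays. Each deposited value is a probe set's intensity, linear and not logged, which the authors computed using MAS5 (per the submitters' processing notes, without a version). Their 2% trimmed means ran from 1499 to 1499.9, so the arrays already shared 1 scale and were not rescaled. Groups were read from the sample titles. After leaving out 57 control probe sets and 12417 with a mean signal under the 40th percentile (215), 18625 were tested. Signals were taken to log2 after adding 24.4, their 10th percentile. Group means were fitted over all 12 arrays with limma 3.58.1 in R 4.3.3 (empirical Bayes, intensity trend, 8 residual degrees of freedom), two-sided, with Benjamini-Hochberg adjustment over all tested probe sets calling those under 0.05. Each adjusted p-value in the text comes from limma. The fit was tested on simulated data.

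Names came from the platform's annotation (20832 probe sets with 1 symbol, 436 with several, 9831 with none). A gene is led by its brightest probe set on average. The members and lists were chosen with earlier results of these data known. Named genes are all members with every probe set, at each time up to 3 passing genes per pathway list by smallest p, and the 3 genes nearest each called member. The 3 MAP kinase phosphatases Dusp2, Dusp8 and Dusp9 had no tested probe set. Pairing was looked for in the data, after group means were removed. The correlations of same-numbered EGF and control arrays were 0.121, 0.150 and 0.376 at 4 h, all above the 0.1 required. At 12 h they were 0.083, -0.111 and -0.103. At 4 h EGF replicate 1 with control replicate 2 gave 0.142, and EGF replicate 2 with control replicate 1 gave 0.138. Replicates 1 and 2 at 4 h share an array set, so these values cannot tell pairs from array sets. The main fit used group means without pairs at either time. An alternative fit took the replicate number as a block at both times, and it is given where it changes a call. Promoters came from RefSeq, and a search for a protein signature was not run because no protein table was used. Precision is limited by the number of arrays (median SE 0.23). Figures were drawn with matplotlib 3.10.9. The alternatives changed the scaling, the offset, the filter, the leading probe set, the arrays included, the blocks and the variance model.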

Additional observations from a re-analysis of the deposited data

Results flagged for a closer look

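Dusp7 was singled out because the test of the difference between its EGF effects at the 2 times passed. The log2 difference, 12 h minus 4 h, was -0.88 ± 0.23 (SE, adjusted p = 0.0249 from limma), with log2 fold changes of 1.67 at 12 h and 2.55 at 4 h. The call was lost in 7 of 22 alternatives, which were the replicate block (adjusted p = 0.0518), the robust fit (0.0516) and 5 that left out 1 array (0.0555 to 0.0684). In EGF cultures, all 3 arrays at 12 h (5946 to 7844) were below all 3 at 4 h (12943 to 13380.3). The controls averaged 2232 ± 359 at 12 h and 2239 ± 401 at 4 h (SD, n = 3 each). Within array sets, the log2 effect at 12 h was 1.80 for EGF replicates 1 and 2. At 4 h it was 2.68 for replicates 1 and 2 and 2.30 for the replicate 3 pair. EGF replicate 3 at 12 h has no control in its own array set. Against the 12 h controls of another set it gave 1.42. The 12 h arrays other than EGF replicate 3 had high actin 3' to 5' ratios, and the part of this in the difference was not tested.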

How the results depend on the processing

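The 4 h calls of the 6 leading probe sets and the 12 h calls of all but Dusp14 kept their direction and stayed past the threshold under every alternative run, with Dusp5 between 4.47 and 5.01 and Dusp6 between 3.45 and 3.74 at 4 h. Dusp14 at 12 h lost its call in 14 of 23 alternatives, among them no filter (adjusted p 0.0753), the 12 h experiment fitted alone (0.114) and the 4 h replicate 3 pair left out (0.0548), its value falling to 0.30 without EGF replicate 1 at 12 h. With the filter at the 60th percentile Dusp10 was not tested. With the second brightest probe set of each gene, the count of members that fell was 0 at 4 h and 0 at 12 h, because Dusp1 is then read from its other probe set, where the 4 h value was -1.23 with an SE of 0.52 against 0.13, and the 12 h value turned to 0.83. In the difference of the effects, the count of lower members was 2 under quantile normalization and with the larger offset of 97.6. It was also 2 without the replicate 3 pair at 4 h, Dusp5 being the one added each time. Over all tested probe sets 12.2%, 12.1% and 8.82% passed in either direction under these settings, against 11.6% in the main fit. Under the robust fit the count was 0, with 9.52% passing over all. Leaving out 1 array gave 0 to 1, with 7.62% to 15.9% passing over all. The count of higher members was 1 with the array set as a block, where 22% passed over all. Leaving out 1 array gave 0 to 1, the 1 being Dusp1, without EGF replicate 3 at 4 h (10.5% over all) or at 12 h (15.9%). Between the controls, 1 member was lower with the second probe set, where 45.4% of all tested probe sets passed. Leaving out 1 array gave 0 to 1, with 35.9% to 53% passing over all. Pathway genes called higher at 4 h numbered 19 with the array set as a block, and those called lower numbered 4 with median centring. The calls over all 18625 tested probe sets moved too. With the array set as a block 3103 were higher at 4 h, against 2118 in the main fit. With median centring 2189 were lower at 4 h, against 3068 in the main fit. Median centring moved the median of all probe sets at 4 h to -0.04 without turning the direction of any tested member. The cause of these changes was not tested.

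With the replicate block, the Dusp7 difference had an adjusted p of 0.0518, and the count of lower members in that test was 0. The block changed no other call of the leading probe sets.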

Other observations

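Of the MAP kinase phosphatases outside the members, Dusp2, Dusp8 and Dusp9 were on the array with probe sets too dim to be tested. Dusp2, a nuclear phosphatase of activated immune cells, averaged 368.1 ± 10.1 in EGF cultures against 75.1 ± 71.2 in controls at 4 h, and 236.3 ± 34.0 against 136.7 ± 15.9 at 12 h (SD, n = 3 each). Dusp8, which acts on JNK and p38, averaged 103.8 ± 37.6 in EGF cultures against 127.7 ± 88.6 in controls at 4 h, and 317.7 ± 170 against 245.6 ± 41.1 at 12 h (SD, n = 3 each). Dusp9 averaged 145.9 ± 65.2 in EGF cultures against 59.0 ± 76.6 in controls at 4 h, and 45.9 ± 41.6 against 11.4 ± 3.84 at 12 h (SD, n = 3 each).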
